A study of Mus musculus with 8 samples.

Results

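The genes Ly6a, Clu, Anxa1, Anxa3 and Msln, which mark fetal-like regenerative epithelium in the intestine, were examined in RNA sequencing of mouse crypt organoids. They are 5 of 13707 genes with a value in the data, chosen by name with earlier results of these data known. All 5 passed the filter that left 10708 genes for testing. Crypt organoids are epithelium that grows in a gel from crypts, the stem cell pockets of the gut wall. The samples were 4 organoid samples labelled wt (WT) and 4 labelled mg53-tg (MG53-TG), a transgenic line that overexpresses MG53 throughout the body. MG53, encoded by Trim72, is a membrane repair protein and E3 ubiquitin ligase of striated muscle. The crypts came from small intestine and were grown in Matrigel with IntestiCult OGM medium and passaged every 5 days. No injury or drug is given for these samples. The age and sex of the mice, the promoter of the transgene and whether each sample came from a separate mouse are not given in the sources used here, so p-values measure the spread between these samples. The sources differ on these organoids. The labels and a figure legend of the study call them MG53-TG and WT, whereas its text ascribes the organoid transcriptome to MG53;Lgr5 mice, in which both MG53-TG and control would also carry an Lgr5-EGFP-IRES-CreERT2 allele. The names of the labels are used here.

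After injury, adult gut epithelium can lose part of its stem cell and enterocyte programme and take up genes of the fetal gut, a state driven by the transcriptional coactivators YAP and TAZ with TEAD factors. Ly6a encodes the surface protein Sca-1, the usual marker for sorting such cells. Clu encodes clusterin, a secreted chaperone that marks revival stem cells. Anxa1 and Anxa3 encode annexins, which bind phospholipid membranes in the presence of calcium, and Msln encodes mesothelin, a surface protein known from mesothelium and fetal gut.

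All 5 genes were lower in MG53-TG than in WT organoids, and for each gene the highest MG53-TG sample lay below the lowest WT sample. The values are FPKM, that is, sequenced fragments corrected for transcript length and for the mapped total of a sample, summed over the transcription starts of a gene. The mean WT level exceeded the mean MG53-TG level 31.3-fold for Ly6a, 13.8-fold for Anxa1, 6.54-fold for Anxa3, 4.91-fold for Msln and 3.32-fold for Clu. All 5 passed a threshold of 0.05 on the adjusted p of limma. Such a fall was common here, since 45% of the genes tested passed the threshold in either direction, 29.3% passed it as lower in MG53-TG, and 29.1% had MG53-TG samples all below the WT samples. The size was less common: 5.58% of genes tested had a log2 fold change at least as low as that of Clu, the smallest fall of the 5. In bulk RNA, fewer cells of a type and less RNA per cell cannot be told apart.

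**Figure D1:**
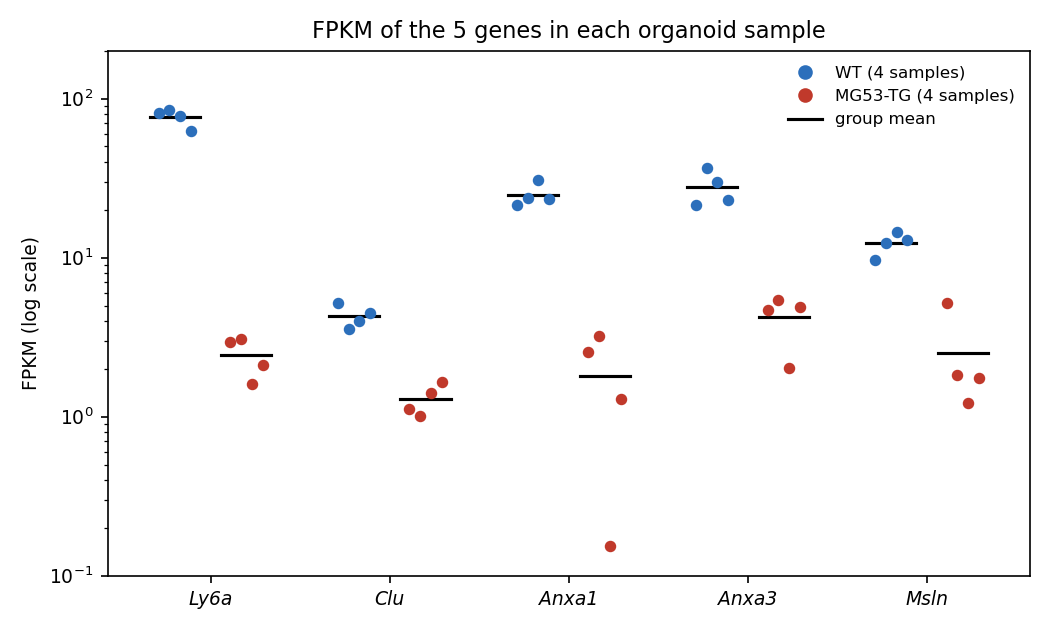
FPKM of Ly6a, Clu, Anxa1, Anxa3 and Msln on a log scale, with 1 point per organoid sample (blue, 4 WT; red, 4 MG53-TG) and a black bar at each group mean. In each gene the red points lie below the blue points, with the widest gap in Ly6a and a low MG53-TG point at 0.154 in Anxa1.

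The labels and the tissue were checked first. No WT sample had an entry for Trim72, whereas its FPKM in the transgenic samples was 16.4, 27.4, 31.9 and 36.5. All 7 epithelial markers examined were listed in each sample, with a sum of 2023 to 2345 FPKM in WT and 1671 to 2168 FPKM in MG53-TG. Epcam was at 438 and 443 FPKM on average, Cdh1 at 222 and 127, Krt8 at 745 and 575, Krt18 at 474 and 227, Cdx2 at 82.2 and 55.2 and Vil1 at 102 and 213 FPKM. Krt19 was at 97.2 to 142 FPKM in WT and spread from 102 to 490 FPKM in MG53-TG. The summed FPKM of start events was between 269094 and 284330 in the 8 samples. The number of reads behind the values is unknown.

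Ly6a lies at chr15:74994877-74998031 on the minus strand of GRCm38. It was at 81.0, 84.6, 77.6 and 62.4 FPKM in WT samples 1 to 4 against 2.96, 3.09, 1.60 and 2.13 FPKM for MG53-TG samples 1 to 4. The lowest WT sample stood 20.2-fold above the highest MG53-TG sample. On the scale of log2(FPKM + 1), on which all fold changes below are given, the difference was -4.51 with a standard error of 0.17 (limma adjusted p = 4.93e-07; exact permutation p = 0.0286, 2-sided). That permutation p is the smallest that 4 against 4 samples allow, and it was the same for each of the 5 genes. Only 4 of the 10708 genes tested had a lower log2 fold change. In WT organoids Ly6a ranked above 94.3% of the genes tested by mean FPKM, and in MG53-TG organoids above 21.2%.

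The Ly6a value rests on an assignment made here. The deposited tables list the starts, exons and end of Ly6a together with those of its neighbour Ly6c1 as a single locus, under the identifier of Ly6c1. The events were separated by their exon coordinates. Both genes belong to the Ly6 family of small surface proteins held by a lipid anchor, and the coding parts of their exon 2 are the same at all but 2 of 70 bases, an identity of 97.1%. They are printed here because reads from this stretch can be placed in either gene, with the 2 bases that differ in capitals (GENCODE M21 transcripts, GRCm38, minus strand, Ly6a at chr15:74997535-74997604 and Ly6c1 at chr15:75048442-75048511).
Ly6a: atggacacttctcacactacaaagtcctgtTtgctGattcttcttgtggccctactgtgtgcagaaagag
Ly6c1: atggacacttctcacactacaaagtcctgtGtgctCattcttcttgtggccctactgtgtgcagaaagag

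Ly6c1 itself, by its own starts, was at 4.93, 4.34, 4.83 and 19.3 FPKM in WT samples 1 to 4. In MG53-TG organoids it was listed only in sample 3, at 0.105 FPKM. Summing Ly6a with Ly6c1, an alternative chosen after seeing the data, gave a log2 fold change of -4.65. The end event of Ly6a followed its starts in 6 of 8 samples to within 0.141 FPKM. The exceptions were WT sample 3, where the end was at 2.09 FPKM against 77.6 for the starts, and WT sample 4, where the end exceeded the starts by 17.3 FPKM. In that sample the starts of Ly6c1 exceeded its exon 2, at 2.06 FPKM, by 17.2 FPKM. The 2 listed forms of Ly6a exon 2 were at 71.8 and 7.84 FPKM there, against 62.4 FPKM for the Ly6a starts. The start value of WT sample 4 may thus understate Ly6a and overstate Ly6c1, which was not tested. By end events alone, WT sample 3 fell within the range of the MG53-TG samples, from 1.60 to 3.10 FPKM, and the log2 fold change of Ly6a was -3.42 (limma adjusted p = 0.0256). The shorter form of Ly6a exon 2 was at 77.5 FPKM in WT sample 3, so there the end event differed from both the starts and exon 2.

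Exon 2 of Ly6a was listed with a shorter and a longer form, which differ by 15 bases. The longer form (chr15:74997535-74997632) took 14.9%, 10.3%, 0.0296% and 9.85% of the FPKM of both forms in WT samples 1 to 4. It took 23.4%, 17.1%, 23.0% and 30.9% in MG53-TG samples 1 to 4. The shares did not overlap between the groups, and were higher in MG53-TG. The exact permutation p was 0.0286, and 0.0715 after Benjamini-Hochberg adjustment over the 5 transcript alternatives compared in these genes, all of which were chosen after their values had been seen.

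Anxa1, which encodes an anti-inflammatory annexin that signals through formyl peptide receptors, lies at chr19:20373428-20390944 on the minus strand. It was at 21.5, 23.7, 30.6 and 23.4 FPKM in the WT samples and at 2.55, 3.22, 0.154 and 1.29 FPKM across the MG53-TG samples. The WT samples differed at most 1.42-fold, whereas the MG53-TG samples spread 20.9-fold, with sample 3 lowest. The log2 fold change was -3.35 with a standard error of 0.36 (limma adjusted p = 0.000163). Without MG53-TG sample 3 it was -2.98. Only 21 genes tested had a lower log2 fold change.

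The FPKM of Anxa1 starts came from a single start in all 8 samples. An 84-base exon inside the gene, at chr19:20376462-20376545, was listed in WT transcripts only. Its share was 6.51%, 6.95%, 43.3% and 6.99% in WT samples 1 to 4, and no MG53-TG sample listed the form with the exon. With these missing entries taken as 0%, the exact permutation p was 0.0286 (adjusted p = 0.0715 over the 5 alternatives). WT sample 3 stood apart from the other WT samples. With Anxa1 as low as 0.154 to 3.22 FPKM in MG53-TG organoids, whether a form at the share of WT samples 1, 2 and 4 would have been listed was not tested. The annotated transcript with this exon, Anxa1-207, is a target of nonsense-mediated decay, and its reading frame ends in the exon. The coding part is printed to show the stop codon, in capitals, at base 46 of the exon (GENCODE M21, GRCm38, chr19:20376498-20376545, minus strand).
Anxa1 exon: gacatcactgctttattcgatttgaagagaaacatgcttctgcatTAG

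Of the 5 genes, only Anxa1 had an entry in the table of promoters used here. Its 250 bases before the RefSeq start are printed because Anxa1 fell with several targets of YAP and TAZ, described below (RefSeq, GRCm38.p6, chr19:20390672-20390921, minus strand). The capitals mark CATTCC, the TEAD motif, found 236 bases before the start. The motif was searched on both strands, and 12.6% of 32851 promoter windows of this length hold it. TGANTCA, the AP-1 motif, is held by 6.75% of the windows and the core of the interferon-stimulated response element by 2.98%, and neither was found in this window of Anxa1. A match is a description of the letters and not a measured binding site.
Anxa1 promoter: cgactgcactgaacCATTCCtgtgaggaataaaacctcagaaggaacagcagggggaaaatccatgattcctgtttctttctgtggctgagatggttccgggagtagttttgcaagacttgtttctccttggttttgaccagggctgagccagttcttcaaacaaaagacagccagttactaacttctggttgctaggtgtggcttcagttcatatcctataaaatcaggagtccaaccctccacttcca

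Anxa3, an annexin known from epithelial and endothelial cells, lies at chr5:96793339-96845966 on the plus strand. It was at 21.3, 36.9, 30.0 and 23.2 FPKM in the WT samples and at 4.66, 5.45, 2.03 and 4.88 FPKM across the MG53-TG samples. The lowest WT sample was 3.91-fold above the highest MG53-TG sample, and MG53-TG sample 3 was again the lowest. The log2 fold change was -2.48 with a standard error of 0.26 (limma adjusted p = 0.000141), and 66 genes tested had a lower value. Its main start carried between 82.1% and 96.3% of the gene's FPKM in WT and between 62.3% and 91.9% in MG53-TG organoids. The inner start with the highest mean over the 8 samples, a rank that it owes to WT sample 4, took 0.629%, 3.25%, 0.791% and 15.4% of the FPKM of both starts in WT and 10.1%, 2.07%, 17.6% and 10.1% in MG53-TG samples. These shares overlapped (exact permutation p = 0.314).

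Msln lies at chr17:25748613-25754378 on the minus strand. It was at 9.68, 12.3, 14.5 and 12.8 FPKM in the WT samples and at 5.22, 1.84, 1.23 and 1.76 FPKM across the MG53-TG samples. MG53-TG sample 1 was far above the other 3, so that the groups were separated by only 1.85-fold at their nearest samples. The log2 fold change was -2.03 with a standard error of 0.30 (limma adjusted p = 0.000832). It was -2.35 without MG53-TG sample 1. Of the genes tested, 108 had a lower log2 fold change.

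Msln was listed with 2 main starts and 2 forms of an exon. The upstream start took 99.4%, 93.7%, 62.8% and 44.4% of the FPKM of both starts in WT samples 1 to 4 and 38.3%, 14.5%, 47.2% and 84.9% in MG53-TG samples 1 to 4. The range within each group was wider than the difference between the group means (exact permutation p = 0.171, adjusted p = 0.285). The longer form of the exon took 17.4%, 18.3%, 31.9% and 53.6% in WT and 7.59%, 28.6%, 10.9% and 21.7% in MG53-TG samples (exact permutation p = 0.286, adjusted p = 0.314). This exon is printed because its forms differ by 12 bases at the 5′ end, in capitals, within the annotated coding sequence (GENCODE M21, GRCm38, chr17:25752942-25753074, minus strand).
Msln exon: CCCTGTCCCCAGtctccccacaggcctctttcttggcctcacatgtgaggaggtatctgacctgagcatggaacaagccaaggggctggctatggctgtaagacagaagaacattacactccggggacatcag

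**Figure D2:**
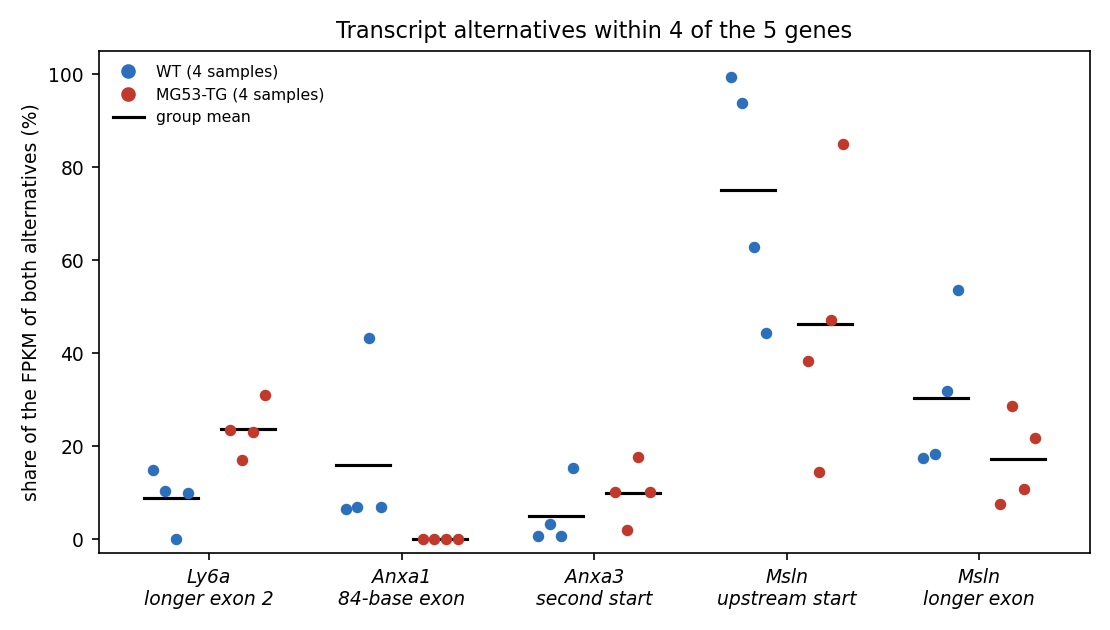
Share in percent of a transcript alternative in the FPKM of both alternatives, with 1 point per sample (blue, 4 WT; red, 4 MG53-TG) and black bars at the group means. The shares of the longer Ly6a exon 2 and of the 84-base Anxa1 exon do not overlap between the groups, with 43.3% in WT sample 3 for Anxa1, and the other 3 alternatives overlap.

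Clu lies at chr14:65968483-65981547 on the plus strand. It was the lowest of the 5 genes in WT organoids, at 5.18, 3.54, 3.98 and 4.48 FPKM, with 1.12, 1.01, 1.40 and 1.64 FPKM for MG53-TG organoids. The groups did not overlap, and the samples within a group differed at most 1.62-fold in MG53-TG and 1.46-fold in WT. The log2 fold change was -1.20 with a standard error of 0.14 (limma adjusted p = 0.000270). The added pseudocount of 1 shrinks the size of the change for a gene at this level, and with a pseudocount of 0.1 the log2 fold change was -1.66. Its main start carried at least 81.8% of the FPKM in each sample.

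**Figure D3:**
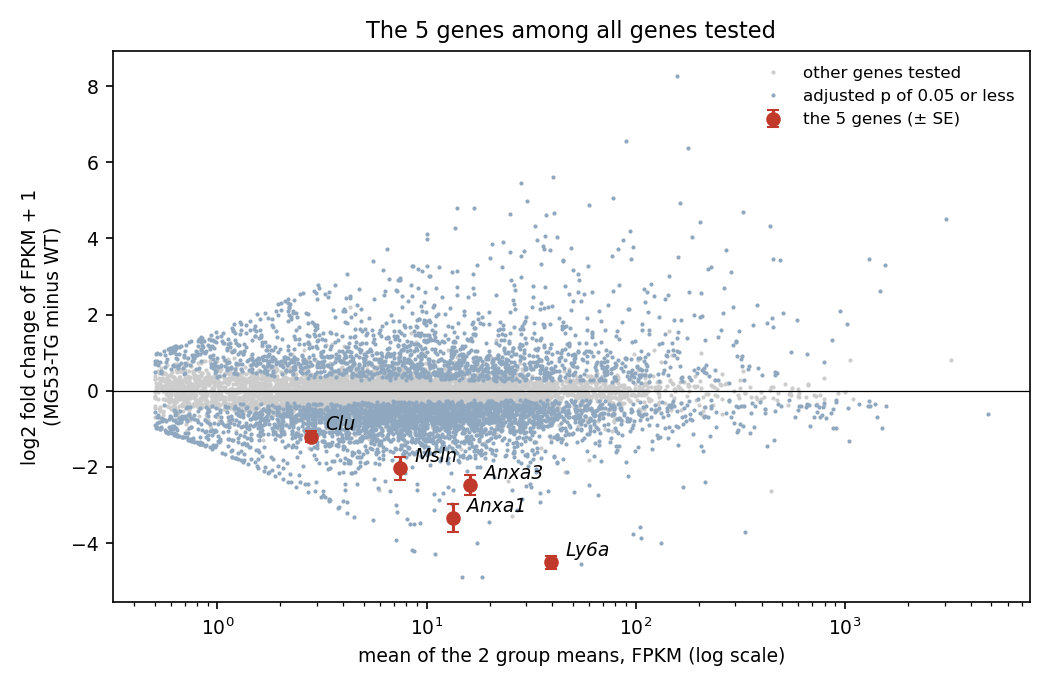
Log2 fold change of FPKM + 1 (MG53-TG minus WT) against mean FPKM on a log scale for the 10708 genes tested, with the 5 genes in red with their standard errors. Ly6a, at -4.51, lies at the lower edge of the cloud for its level, and Clu, at -1.20, lies within the cloud.

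The levels of the 5 genes were then set side by side, since FPKM is per length. The 5 genes together came to 146 ± 16.1 FPKM (SD, n = 4) in WT and 12.3 ± 4.40 FPKM in MG53-TG organoids. Ly6a was the highest of the 5 in all WT samples and made up 52.4% of the WT sum. Below it, Anxa3 at 27.8 ± 7.08 FPKM and Anxa1 at 24.8 ± 3.97 FPKM overlapped, followed by Msln at 12.3 ± 1.997 FPKM and Clu at 4.29 ± 0.703 FPKM, which did not overlap with their neighbours. In MG53-TG organoids Ly6a made up 19.8% of the sum. There Anxa3 was highest in 3 samples and Msln in sample 1, and the means of Anxa3 (4.26), Msln (2.51), Ly6a (2.44), Anxa1 (1.80) and Clu (1.29 FPKM) formed an order in which all neighbours overlapped. MG53-TG sample 3 had the lowest value in 4 of the 5 genes, and for Clu it was sample 2.

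Across the 8 samples, the Pearson correlation of log2(FPKM + 1) was 0.982 between Anxa1 and Anxa3 and 0.974 between Ly6a and Anxa3. It was 0.849 between Clu and Msln, the lowest of the pairs. The 8 points form 2 groups, so these values largely restate the difference between the genotypes. Among the 3 genes most like each of the 5 were Gtf2e2 and Cdh1 for Ly6a (r = 0.997 each) and Pabpc1 (0.997), Rab15 (0.993) and Gm24016 (0.986) for Clu. They included Sort1 (0.996) and Qsox2 (0.993) for Anxa1, Slc39a11 (0.990), Sipa1l1 and Chac2 (0.989 each) for Anxa3, and Tcaf1 (0.993), Smtnl2 (0.992) and Mgat4c (0.989) for Msln. By deviations from the group means, the nearest were Lrrc14, Park7 and Cep68 for Ly6a (r from 0.973 to 0.987), Smagp, Elf4 and Pabpc1 for Clu (0.957 to 0.988), and Tgfa, Nfya and Fopnl for Anxa1 (0.977 to 0.979). They were 5430403G16Rik, Atp5j and Slc35c1 for Anxa3 (0.949 to 0.951) and Alkbh2, Stam and Pik3c2a for Msln (0.965 to 0.990). None of the 5 genes was among the 3 nearest genes of another. By both measures the 3 were picked as the highest r among all tested genes over only 8 samples. How high r would reach among unrelated genes was not tested.

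A list of 24 other genes of fetal-like or regenerating epithelium was examined beside the 5. Like the lists that follow, it was chosen with earlier results of these data known. Of its 18 tested members, 13 were lower in MG53-TG, 0 were higher, and the median log2 fold change was -1.48, against 29.3% lower, 15.7% higher and a median of -0.17 over all genes tested. The filter keeps genes that are high in 1 group only. Without it, 14 of 21 were lower and 1 was higher (Gja1), beside 23% and 13% of all genes. Cd44, a hyaluronan receptor of crypt cells, was at 20.8, 20.4, 26.1 and 24.5 FPKM in WT and at 7.98, 5.58, 1.23 and 0.724 FPKM across the MG53-TG samples (log2 fold change -2.62, limma adjusted p = 0.00298). Ly6d, a relative of Ly6a, was at 22.4 FPKM in WT and 2.95 FPKM in MG53-TG on average (-2.54, adjusted p = 3.47e-05). Plaur, the urokinase receptor, was at 9.98 and 1.19 FPKM (-2.31, adjusted p = 3.09e-05). Ereg, which encodes the growth factor epiregulin, was at 3.06 to 6.25 FPKM in WT and had no entry in the MG53-TG samples.

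The 5 tested genes of this list that did not pass were Areg, Emp1, Anxa2, Cxadr and Tnfrsf12a. Areg, an epidermal growth factor receptor ligand like Ereg, was at 134 and 123 FPKM on average in WT and MG53-TG, and Emp1 at 73.9 and 77.7 FPKM. Sprr1a passed the threshold with 2 WT samples missing and no entry in the MG53-TG samples. With absent entries as 0, 12 genes of the list were lower. Spp1 and Basp1 had no entry, and Gja1, Il33 and Cldn4 were under the filter. Gja1, a gap junction protein, had no entry in WT sample 1. It was at 0.118 to 0.275 FPKM in WT samples 2 to 4 and 0.334 to 1.63 FPKM in MG53-TG. It was higher without the filter (limma adjusted p = 0.0355), without WT replicate 4 (0.0480) and without MG53-TG replicate 1 (0.0158). Without WT replicate 1 or WT replicate 2, 19 genes of the list were tested, Gja1 among them, and 0 were higher.

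**Figure D4:**
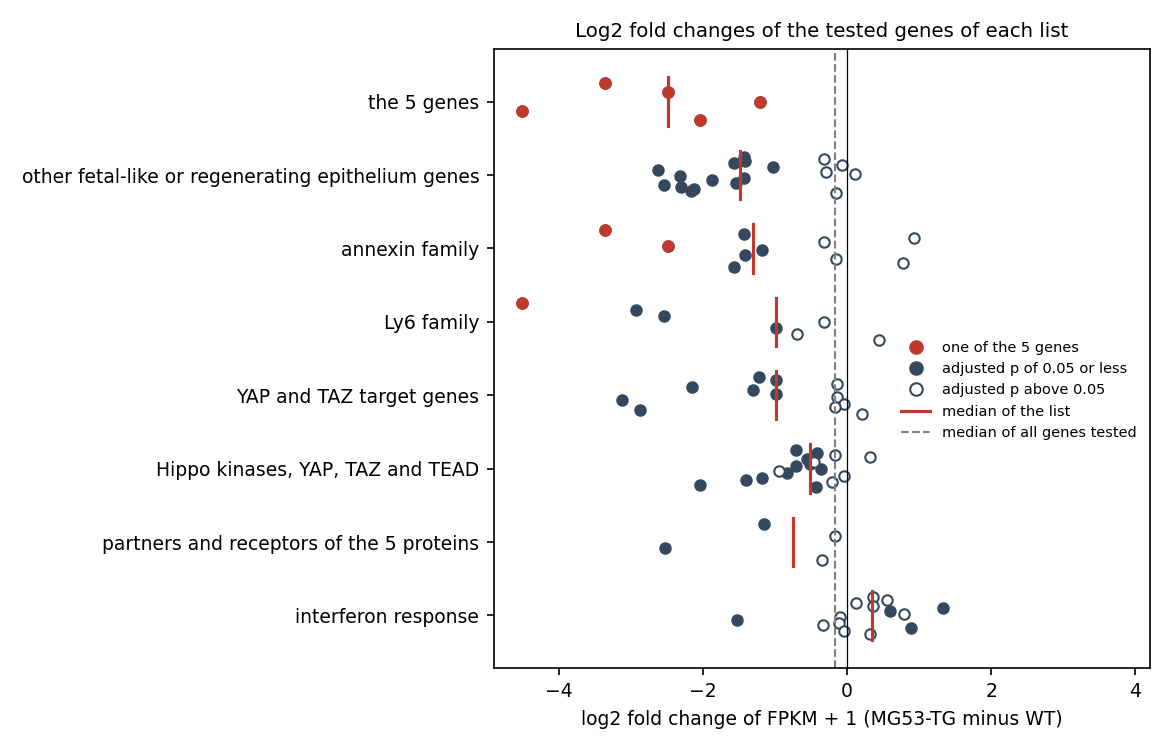
Log2 fold changes of the tested genes of 8 gene lists (cell type markers not drawn), with 1 point per gene (filled, limma adjusted p of 0.05 or less; open, above; red, the 5 genes) and a red line at the list's median. The medians run from -2.48 for the 5 genes to 0.34 for interferon response genes, and the dashed line marks the median of all genes tested at -0.17.

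The annexins were examined as the family of Anxa1 and Anxa3. Of 10 tested, 6 were lower (Anxa1 and Anxa3 among them) and 0 higher, with a median of -1.30, beside 29.3% lower, 15.7% higher and a median of -0.17 over all genes tested. Of the family, 4 (Anxa2, Anxa5, Anxa8 and Anxa10) are also in the fetal-like list. After Anxa1 and Anxa3 came Anxa8, at 2.81 FPKM on average in WT and at most 0.612 FPKM in MG53-TG (-1.57, limma adjusted p = 0.00168). Anxa5, the annexin used to stain dying cells, was at 28.3 and 9.77 FPKM (-1.42, adjusted p = 0.000409), and Anxa10 at 5.79 and 1.57 FPKM (-1.42, adjusted p = 0.00258). Anxa4, the most abundant annexin in WT, was at 314 and 140 FPKM (-1.18, adjusted p = 0.000804).

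The other 4 annexins tested did not pass. Anxa2, the partner of S100a10 in a membrane complex, was at 181 and 146 FPKM (-0.33, limma adjusted p = 0.202). Anxa13, an annexin of intestinal epithelium, was at 53.8, 104, 104 and 149 FPKM in WT and at 213, 193, 107 and 268 FPKM across the MG53-TG samples (0.93, adjusted p = 0.0545), and passed under median-of-ratios scaling (adjusted p = 0.0304), with the replicate block (0.0473), without WT replicate 4 (0.0358) and without MG53-TG replicate 3 (0.0203). Anxa7 overlapped, with WT sample 3 at 0.494 FPKM and the others between 14.7 and 21.6 FPKM, and Anxa6 was at 2.02 and 1.96 FPKM. Anxa11, listed under another identifier and found by exon coordinates, was at 40.8 to 51.4 FPKM in WT and 25.5 to 46.8 FPKM in MG53-TG (adjusted p = 0.106).

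**Figure D5:**
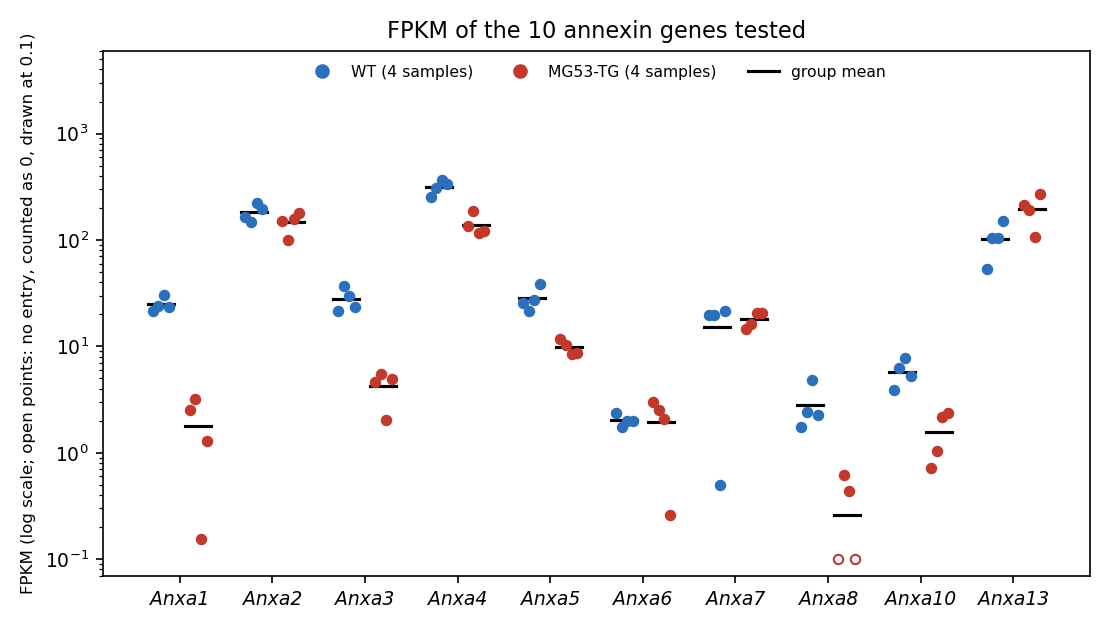
FPKM of the 10 annexin genes tested on a log scale, with 1 point per sample (blue, 4 WT; red, 4 MG53-TG), black bars at the group means and open points at 0.1 for samples without an entry. Anxa1, Anxa3, Anxa4, Anxa5, Anxa8 and Anxa10 separate with MG53-TG lower, and Anxa2, Anxa6, Anxa7 and Anxa13 overlap.

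Of the Ly6 family, 7 of 16 genes were tested, and 4 were lower (Ly6a, Ly6c1, Ly6d and Ly6g6c) and 0 higher, when 29.3% and 15.7% of all genes tested were. These 4 include Ly6a itself and Ly6d, which the fetal-like list also holds. Ly6c1 and Ly6g6c reached the filter through their WT values alone. Without the filter 5 of 11 were lower and 0 higher, beside 23% lower and 13% higher over all 13707 genes, and the median was -0.69. With the filter the median log2 fold change was -0.99, and it moved to between -2.47 and -1.77 when a WT sample was left out. Ly6g6c was low in both groups, at 0.458 to 1.77 FPKM in WT and at most 0.160 FPKM in MG53-TG. Ly6e, a family member broadly expressed in epithelium, was at 78.4, 81.3, 107 and 86.7 FPKM in WT and at 85.5, 149, 50.5 and 37.1 FPKM across the MG53-TG samples, which overlapped (limma adjusted p = 0.508). Lypd8, a secreted protein that keeps bacteria from the colon wall, was at 88.6 and 124 FPKM (adjusted p = 0.106, but 0.0156 under median-of-ratios scaling, 0.0345 with the replicate block and 0.0247 without MG53-TG replicate 4).

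Among known partners and receptors of the 5 proteins, 2 of 4 tested genes were lower and 0 higher, with a median of -0.75 (all genes tested: 29.3% lower, 15.7% higher). The count was 1 of 4 without WT replicate 1, WT replicate 3 or MG53-TG replicate 4, and with sample weights, and 3 of 4 under quantile normalization. The median was -1.15 with a pseudocount of 0.1. S100a11, a calcium-binding partner of Anxa1, was at 248, 249, 344 and 301 FPKM in WT and at 61.7, 61.3, 36.5 and 39.4 FPKM across the MG53-TG samples (log2 fold change -2.53, limma adjusted p = 2.87e-05). S100a10 was at 223 and 197 FPKM (adjusted p = 0.141). The lipoprotein receptors Lrp8 and Vldlr, which bind clusterin, were at means of 3.20 and 0.820 FPKM for Lrp8 (adjusted p = 0.0233) and at 10.5 to 17.6 and 9.06 to 13.8 FPKM for Vldlr (adjusted p = 0.150). The Anxa1 receptors Fpr1 and Fpr2, the clusterin receptor Lrp2 and the mesothelin ligand Muc16 had no entry.

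Of 23 target genes of YAP and TAZ, 12 were tested, 7 were lower and 0 higher, against 29.3% and 15.7% of all genes tested, and the median was -0.98. Without the filter on low values, 15 were tested, 8 were lower and 1 higher, and the median was -0.58. Over all genes without the filter, 23% were lower and 13% higher, with a median of -0.09. F3, which encodes tissue factor, was at 31.0, 33.3, 75.8 and 59.2 FPKM in WT and at 3.10, 4.86, 5.15 and 5.01 FPKM across the MG53-TG samples (-3.12, limma adjusted p = 6.55e-05). Ccn1, a matricellular protein long used as a YAP readout, was at 7.85 and 0.982 FPKM (-2.15, adjusted p = 9.92e-06). Ccn2, of the same family, and Myof, which encodes myoferlin, were at 1.30 to 1.70 FPKM and at 3.47 to 11.3 FPKM in WT, and neither had an entry in MG53-TG samples. Ankrd1 had no entry in any sample. Gadd45a (23.1 and 22.7 FPKM), Dock5, Asap1, Lats2 and Nuak2 did not pass.

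Of 17 tested genes of the Hippo kinases, YAP, TAZ and TEAD factors, 11 were lower and 0 higher, with a median of -0.52, beside the same 29.3% and 15.7%. The list joins YAP, TAZ and TEAD with Hippo kinases that restrain them, so its count gives no direction of YAP activity. Among the 11 were the kinases Lats1 (-0.42), Stk3 (-0.71) and Stk4 (-0.37). Their cofactors Sav1 (-0.52) and Mob1b (-0.55), and Amot (-0.71), were also among them. Wwtr1 and Tead4, among those 11, reached the filter through their WT values alone. Without the filter 10 of 18 were lower and 0 higher, with a median of -0.49, beside 23% lower and 13% higher over all genes. The lower count was 7, and the median -0.34, under median-of-ratios scaling, where 20.4% of all genes tested were lower. The count was 8 under quantile normalization (23.6% of all genes) and 5 of 10 by end events (27.8%). It was 7 without WT replicate 2 or WT replicate 4 (23.2% of all genes each). Without WT replicate 1, 8 were lower and 1 higher, beside 22.8% and 13.5% of all genes. Wwtr1, which encodes TAZ, was at 2.98, 3.12, 3.54 and 2.82 FPKM in WT and had no entry in MG53-TG samples, and Tead4 at 0.873 to 1.72 FPKM in WT likewise had none. Vgll4, which competes with YAP for TEAD, was at 41.3 and 15.5 FPKM (-1.40, limma adjusted p = 0.000684), and Tead2 at 2.37 and 0.988 FPKM (adjusted p = 0.0235). Yap1 was at 27.3, 26.1, 18.4 and 24.7 FPKM in WT and at 18.5, 16.7, 17.3 and 17.1 FPKM across the MG53-TG samples, and WT sample 3 fell within the MG53-TG range. Its adjusted p was 0.0237, but 0.156 under median-of-ratios scaling and 0.0833 under quantile normalization, 0.379 by end events and 0.0528 to 0.0656 without WT replicate 1, 2 or 4 or MG53-TG replicate 3. Tead1, Tead3, Lats2, Mob1a, Nf2 and Wwc1 did not pass.

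The 28 interferon response genes were examined because interferon induces Ly6a in other tissues. Of 14 tested, 3 were higher (Ifit3, Psmb9 and Irf1) and 1 lower (Oas1a), with a median of 0.34. As shares, 21.4% were higher and 7.14% lower, near the 15.7% of all genes for higher and under the 29.3% for lower. The median was 0.12 without MG53-TG replicate 3 or MG53-TG replicate 4, and 2 genes were higher without WT replicate 3, WT replicate 4 or MG53-TG replicate 2. Without any 1 MG53-TG sample 2 were lower. Without the filter on low values, 23 were tested, 4 were higher and 5 lower, and the median was -0.03, beside 13% higher and 23% lower over all genes. Ifit3 was at 0.753 to 2.32 FPKM in MG53-TG and had an entry in WT sample 4 only, at 0.0973 FPKM. Psmb9, an immunoproteasome subunit, was at 1.01 and 2.69 FPKM (0.89, limma adjusted p = 0.00710), and the transcription factor Irf1 at 2.57 and 4.41 FPKM (0.60, adjusted p = 0.0290). Oas1a was at 4.64 and 0.944 FPKM (-1.52, adjusted p = 0.000573). Without the filter on low values, the list's shares of 17.4% higher and 21.7% lower were near those of all genes.

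Markers of other cell types were compared because Msln is a mesothelial gene and Ly6a is expressed in blood and endothelial cells. Of 7 mesothelial markers, Wt1, Lrrn4, Bnc1, Gpm6a and Calb2 had no entry, and the list's sum was 5.27 to 8.19 FPKM in WT and 3.92 to 11.5 FPKM in MG53-TG, all from Upk3b and Upk1b. Neither passed the test (adjusted p = 0.939 and 0.255), but the calls depended on the events used. By start events only, Upk3b was lower, with no start listed in MG53-TG samples, and Upk1b was higher (adjusted p = 3.63e-06 and 0.0128), and with absent entries as 0 Upk1b was higher (0.0423). None of 6 endothelial markers had an entry under its own identifier. By exon coordinates, Egfl7 was listed under another identifier at 0.202 to 1.59 FPKM in WT and 0.408 to 1.15 FPKM in MG53-TG (limma adjusted p = 0.974). Of 8 immune markers, Cd79a, Adgre1, Itgam, C1qa and Csf1r had no entry, Ptprc and Cd3e were under the filter, and the sum was 3.75 to 9.17 FPKM in WT and 0.469 to 1.28 FPKM in MG53-TG. That sum is almost all Cd68, a lysosomal protein best known from macrophages, at 6.14 and 0.935 FPKM (limma adjusted p = 0.000519), and its part in the results was not tested.

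Of 10 mesenchymal markers, Lum, Pdgfra, Pdgfrb and Acta2 had no entry, and the sum was 1.80 to 3.28 FPKM in WT and 1.31 to 5.67 FPKM in MG53-TG. Of 3 tested, Col1a2 and Col3a1 passed as higher with MG53-TG sample 1 missing, beside 15.7% higher over all genes tested. They were listed only in MG53-TG samples 2, 3 and 4, at 0.739 to 2.07 FPKM and 0.904 to 1.62 FPKM. With absent entries as 0, by start events only, or without MG53-TG replicate 2, 3 or 4, neither was among the genes tested. Vim, the other gene tested, was at 2.41 FPKM on average in WT and 1.59 FPKM in MG53-TG (-0.41, limma adjusted p = 0.125). Without MG53-TG replicate 4, 1 gene of the list was tested, and it was lower. Of 7 epithelial markers, 4 were lower (Krt18, Cdh1, Cdx2 and Krt8) and 1 was higher (Vil1, villin of the brush border), with a median of -0.37, beside 29.3% lower, 15.7% higher and a median of -0.17 over all genes tested. The list's median was -0.17 under median-of-ratios scaling, -0.15 by end events and -0.58 by start events only. Krt8 did not pass under median-of-ratios scaling (adjusted p = 0.245) or by start events only (0.0540). Krt19 did not pass (adjusted p = 0.136), except as higher without MG53-TG replicate 4 (0.0361).

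The scaling bears on the counts above. Over all genes tested, median-of-ratios scaling moved the median fold change by 0.16 on the log2 scale, and quantile normalization moved it by 0.12. The share of higher genes among all genes past the threshold was 34.9% as reported, with 1682 higher and 3135 lower, 50.4% under median-of-ratios scaling (2220 and 2183) and 44.9% under quantile normalization (2053 and 2524). The 5 genes were lower and past the threshold under both.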

How the data were processed

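RNA sequencing of 4 WT and 4 MG53-TG organoid samples was analysed. According to the study's methods and the submitters' processing notes, reads were trimmed with Cutadapt 1.9.1, mapped to mm10 with HISAT2 2.0.1 and quantified with HTSeq 0.6.1. The notes also name DESeq2. The authors deposited FPKM values per transcript event (start, end, skipped exon, alternative exon end), with the smallest at 1e-06, so whole reads could not be recovered. The tool that made the events is not given in the sources used here. FPKM depends on the annotated length and on the total of each sample, so strong genes can shift the others.

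The FPKM of a gene was the sum of its start events, or of its end events where their mean was higher. Genes were taken from the deposited identifier. Since Ly6a is listed under the identifier of Ly6c1, that locus was separated by GENCODE M21 exon coordinates (GRCm38), a departure from the planned design. Of 13706 identifiers, 13699 were found in GENCODE. Where a sample lacked an entry, it was set to 0, or to missing if the median of its group's other samples reached 0.5 FPKM. A value of 0 is thus an absent entry, which may be a failed estimate, and no fold is given against a group without entries.

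The groups were compared on the log2(FPKM + 1) scale in limma 3.58.1 (trend) in R 4.3.3. The fit held the 10708 genes whose mean reached 0.5 FPKM, p-values were adjusted over all of them by the Benjamini-Hochberg method, and the threshold was 0.05. Every adjusted p of a gene comes from this fit or its alternatives. The added 1 FPKM shrinks the fold changes of weakly expressed genes. Single values were compared by a 2-sided exact permutation test over 70 relabellings (scipy 1.17.1 in Python 3.11.15), whose smallest p is 0.0286. The members and gene lists were chosen with earlier results of these data known. Besides the 5 genes and Trim72, genes are named that changed most past the threshold in each list (up to 4), that are relatives, partners or receptors of the 5, or that had the most similar profile. The values of 3 genes that these rules name are not reported here. The remaining genes named were added after their values were seen. Alternatives were a pseudocount of 0.1, a filter at 2 FPKM or none, scaling by median of ratios or quantiles, a replicate block, sample weights, start or end events only, absent entries as 0, assignment of all genes by coordinates and leaving out each sample.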

Additional observations from a re-analysis of the deposited data

Results flagged for a closer look

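Genes given above with values, the 5 transcript alternatives, the end event of Ly6a and its difference from the starts were examined in each group for a sample far from the other 3, leaving out groups with a missing value. Of 116 groups, 10 had such a sample, and chance gives about 1 in 20, or 5.8 of 116.

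Msln in MG53-TG sample 1, at 5.22 FPKM, stood above the other MG53-TG samples, which were at 1.23 to 1.84 FPKM. F3 in MG53-TG sample 1, at 3.10 FPKM, stood below the others, at 4.86 to 5.15 FPKM. Ly6c1 in WT sample 4, at 19.3 FPKM by its starts, stood above the others, at 4.34 to 4.93 FPKM. Its exon 2 was at only 2.06 FPKM there, and this was the sample whose Ly6a end event exceeded its starts. Anxa7 in WT sample 3, at 0.494 FPKM, stood below the others, at 19.5 to 21.6 FPKM. In the same sample the end event of Ly6a was at 2.09 FPKM, against 79.7 to 84.7 FPKM in the others, and the share of the 84-base Anxa1 exon was 43.3%, against 6.51% to 6.99%. The remaining 4 were values near 0, namely the end event of Ly6a minus its starts in MG53-TG sample 4 at 0.0580 FPKM, Ly6c1 in MG53-TG sample 3 at 0.105 FPKM, Ly6g6c in the same sample at 0.160 FPKM and Ifit3 in WT sample 4 at 0.0973 FPKM.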

How the results depend on the processing

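Each of the 5 genes remained lower and past the threshold under 12 alternatives and when each of the 8 samples was left out. The log2 fold changes ranged over the alternatives from -4.95 to -3.42 for Ly6a, from -1.66 to -1.06 for Clu, from -4.22 to -3.21 for Anxa1, from -2.74 to -2.31 for Anxa3 and from -2.46 to -1.88 for Msln. With a sample left out they ranged from -4.60 to -4.38, -1.28 to -1.13, -3.60 to -2.98, -2.60 to -2.24 and -2.35 to -1.86 in the same order. The count of genes past the threshold, 4817 as reported, ranged from 3633 to 4932 over the alternatives and from 3853 to 5114 with a sample left out. Samples with the same replicate number did not deviate together (correlations of -0.0399 to 0.0954), and the numbers were taken as names only. A fit with the replicate block called 4391 genes, and the adjusted p of the 5 genes was 0.00645 or less. Of the lists, 1 annexin (Anxa13) and 1 gene of the Ly6 family (Lypd8) were higher with the block. Of the list medians, that of the Ly6 family moved from -0.99 to between -2.47 (without WT replicate 4) and -1.77 when a WT sample was left out, to -2.86 with a pseudocount of 0.1, to -2.54 with a filter at 2 FPKM, to -1.65 under median-of-ratios scaling, to -1.62 by start events only and to -0.69 with no filter, and that of the mesenchyme markers moved from 1.12 to 3.62 with a pseudocount of 0.1 and to 0.40 with no filter. Under median-of-ratios scaling 1 annexin, 1 gene of the Ly6 family and 1 YAP or TAZ target were higher. The lower count of the Hippo list, 11 as reported, was 7 without WT replicate 2 or 4 and 12 without MG53-TG replicate 1. Depth is unknown and sets no stated limit here, so a missing entry is no measurement of absence.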
